A study of Mus musculus with 3 samples.

Results

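The genes described here encode the proteins of the cytosolic ribosome. They were taken by symbol, as those that begin with Rpl or Rps followed by a digit or by the letters of the acidic and laminin-binding proteins (Rplp, Rpsa), without the S6 kinase and Rps19-binding protein genes. This gave 90 of the 11886 genes in the authors' deposited table, 55 of the large and 35 of the small subunit, on 105 of its 17910 transcripts. By name, 77 of the 90 are canonical ribosomal proteins (46 large, 31 small), 4 are paralogs (Rpl22l1, Rpl36al, Rpl7l1 and Rps27l), and 9 are copies named as pseudogenes or retrogenes. All 77 canonical names that the symbol rule can reach had a value, although that of Rps27 comes from a non-coding transcript alone.

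RNA came from mT3-2D-GFP, a mouse pancreatic tumour line on a C57BL/6 background that is derived from the KPC mouse model of pancreatic cancer and carries green fluorescent protein. One group held GFP-positive cells sorted from tumours that the line formed in immunocompetent C57BL/6 (WT) mice, a further group GFP-positive cells sorted from tumours in B6.CB17-Prkdcscid/SzJ (SCID) mice, a strain without mature lymphocytes of the T and B lineages. The last was the line in culture, in DMEM with serum and glutamine, for which no sort is described. All 3 groups therefore derive from a single line. RNA of 6 WT tumours and of 5 SCID tumours was pooled before library making, so each group was 1 library, and variation from tumour to tumour cannot be seen. The files used here give fold changes between libraries and no counts or levels. No difference could be tested, no value has a replicate check, and nothing is known of sequencing depth per library beyond the stated mean of 40 M reads.

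The ribosome joins a small subunit, which reads the messenger RNA, to a large subunit, which forms the peptide bond and passes the new chain through a tunnel. Each subunit needs most of its proteins in equal numbers. In mammals the messages for most ribosomal proteins share a start with a run of pyrimidines, the TOP element, through which mTORC1 controls their translation. Growing cells spend much of their RNA and protein synthesis on ribosomes.

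The sequences around the annotated start were searched for a fixed string of pyrimidines, and not for pyrimidine runs in general. A TCTTT, the core of the pyrimidine-rich initiator of these genes, was searched on the gene's own strand in the 60 bases from 35 before the start to 25 from it, in RefSeq promoters of GRCm38.p6. Promoters were matched by symbol for 57 of the 77 canonical genes and for all 4 paralogs. It was present in 16 of the 57 canonical genes (28.1%), in 0 of the 4 paralogs, in 4 of 69 mitochondrial ribosomal protein genes (5.80%), and in 8.74% of all genes with a promoter in that table. The following sequences are 5 canonical genes with the TCTTT at or beside the annotated start, and for contrast the paralogs that lay farthest from the canonical genes in the values below; capitals mark the TCTTT, and the base at the annotated start is the 36th.
Rps6 (chr4:86857343-86857402, reverse strand): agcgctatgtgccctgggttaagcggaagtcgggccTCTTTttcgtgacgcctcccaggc
Rpl35 (chr2:39005107-39005166, reverse strand): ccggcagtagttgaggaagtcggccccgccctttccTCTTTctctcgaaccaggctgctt
Rpl28 (chr7:4792930-4792989, forward strand): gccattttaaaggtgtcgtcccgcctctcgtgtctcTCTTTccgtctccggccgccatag
Rpl12 (chr2:32961677-32961736, forward strand): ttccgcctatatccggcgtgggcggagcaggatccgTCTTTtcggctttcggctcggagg
Rpl38 (chr11:114668545-114668604, forward strand): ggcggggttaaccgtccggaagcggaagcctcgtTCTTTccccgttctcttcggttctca
Rpl7l1 (chr17:46782632-46782691, reverse strand): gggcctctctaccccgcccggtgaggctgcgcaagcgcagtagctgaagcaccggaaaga
Rps27l (chr9:66946051-66946110, forward strand): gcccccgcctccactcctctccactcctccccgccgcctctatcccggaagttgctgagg
Rpl22l1 (chr3:28805473-28805532, forward strand): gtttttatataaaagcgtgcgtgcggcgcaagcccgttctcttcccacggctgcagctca

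In a canonical gene such as Rps6 the TCTTT follows the base at the annotated start, while the windows of Rpl7l1, Rps27l and Rpl22l1 do not hold these letters. The window of Rpl22l1 does hold another run of pyrimidines after that base (ttctcttccc). A window without TCTTT is therefore not one without a pyrimidine run, and the shares above are not shares of TOP elements. A second sequence, CCGGAAG, the core of the ETS factor site, was searched on both strands over all 300 bases of each promoter. It was found in 24 of the 57 canonical genes (42.1%), in 26 of 69 mitochondrial ribosomal protein genes (37.7%) and in 9.93% of all genes. It can overlap no TCTTT, since the pair of motifs shares no end, and a match is a run of letters and not a known binding site. Canonical genes with the TCTTT had a median of -0.19 in WT tumours and -0.15 in SCID tumours against the line, and those without it had medians of -0.22 and -0.23, all as log2 fold changes. The medians of both sets lay below 0, while their highest genes in SCID tumours were above it, at 0.037 with the letters and 0.25 without. Canonical genes with CCGGAAG had medians of -0.28 in WT tumours and -0.24 in SCID tumours. Those without CCGGAAG had medians of -0.17 and -0.15. Neither split was tested.

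All values from here are fold changes of the authors' deposited table, read as log2 since it names no base, averaged over the transcripts of a gene where it has several, and a value of 1 is a 2-fold difference. In cells sorted from tumours, ribosomal protein RNA was slightly and broadly below its share in culture. In WT tumours against the line, 86 of 90 members were below 0 and 4 above, where 51.4% of all genes were below and 48.6% above. The large subunit had a median of -0.23 (0.852-fold) with 52 of 55 below 0, and the small subunit a median of -0.17 (0.888-fold) with 34 of 35 below 0. In SCID tumours against the line, 81 of 90 were below 0 and 9 above, where 51.7% of all genes were below and 48.3% above. The large subunit median was -0.23 with 49 of 55 below 0, and the small subunit median was -0.16 with 32 of 35 below 0. The median of all genes was -0.01 in WT tumours and -0.02 in SCID tumours against the line. These comparisons share the cultured library, so a departure of that library would appear in both.

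The differences were small for each gene. In both comparisons with the line, 0 of 90 members differed by 2-fold in either direction. In WT tumours 4.12% of all genes were higher by 2-fold and 2.03% lower, and in SCID tumours 3.65% higher and 2.62% lower. At 1.5-fold, 2 members were lower in WT tumours, Rpl7l1 and Rps27l, and 3 in SCID tumours, where Rpl29 was the third, while 8.36% of all genes in WT tumours and 9.43% in SCID tumours passed that threshold in the lower direction. None was higher by 1.5-fold, where 11.3% of all genes were in WT tumours and 11% in SCID tumours. The values were also close together. The interquartile range of the 90 members was 0.20 in WT tumours and 0.21 in SCID tumours, against 0.56 and 0.58 for all genes.

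**Figure D1:**
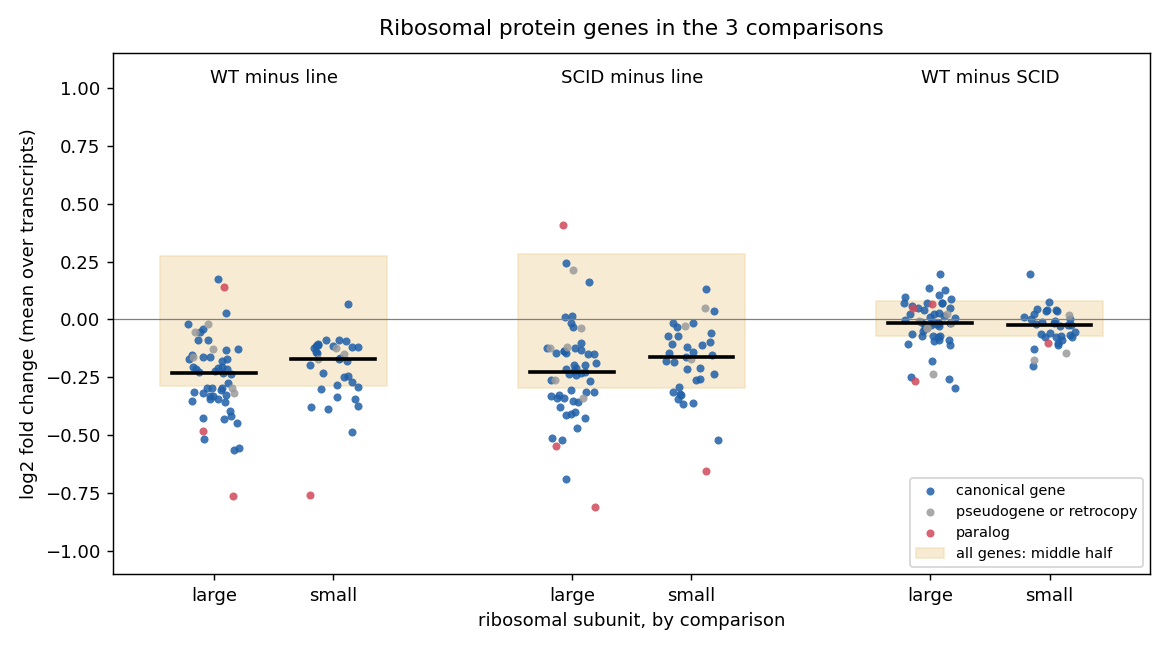
Log2 fold changes of the 90 ribosomal protein genes, 1 point per gene, by subunit in each comparison, with the black bar at the median of the subunit and the shaded band over the interquartile range of all 11886 genes. Both subunits lie mostly below 0 against the line (large -0.23 and small -0.17 in WT tumours, large -0.23 and small -0.16 in SCID tumours) and around 0 in WT minus SCID (large -0.01, small -0.02).

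Transcript length differed between these genes and the rest. Member transcripts with a matched GENCODE sequence had a median length of 777 bases, against 2966 bases for all, while the median GC content was 50.6% in both. A quadratic surface in GC content and log10 length, fitted over all transcripts, was then subtracted, which left 82 members with a value. The large subunit median was then -0.072 in WT tumours and -0.080 in SCID tumours against the line, with 35 and 30 of 50 genes below 0. The small subunit median was -0.026 in WT tumours and 0.011 in SCID tumours, with 17 and 14 of 32 below 0. All genes then had 51.2% below 0 in WT tumours and 52.1% in SCID tumours. The medians thus moved most of the way to 0, and that of the small subunit in SCID tumours changed sign; what part transcript length or GC content has in the shift was not tested.

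Single members stood apart from the rest by more than the shift itself. Among the large subunit genes, Rpl7l1 was lowest at -0.76 in WT tumours and -0.81 in SCID tumours against the line. It is a paralog of Rpl7 whose yeast counterpart acts in assembly of the large subunit and not in the finished ribosome, while Rpl7 itself was at -0.23 and -0.21. Rps27l was the lowest small subunit gene, at -0.76 in WT tumours and -0.65 in SCID tumours. It is a paralog of Rps27 and a known target of p53. Rps27 was the highest small subunit gene, at 0.07 in WT tumours and 0.13 in SCID tumours, but its only row in the authors' deposited table is a non-coding transcript. The coding Rps27 transcript was not analysed here. After the trend removal Rpl7l1 was still at -0.72 in WT tumours and -0.76 in SCID tumours, and Rps27l at -0.55 and -0.53.

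Rpl36al, which encodes a protein close to that of Rpl36a, was at -0.48 in WT tumours and -0.55 in SCID tumours. Rpl36a was at -0.30 and -0.19. Paralog minus canonical gene was -0.18 in WT tumours and -0.36 in SCID tumours for this pair, and -0.53 and -0.60 for Rpl7l1 and Rpl7. It was -0.82 and -0.78 for Rps27l and Rps27, a pair that drops out when coding transcripts alone are used. In the Rpl22 pair the difference was -0.03 in WT tumours and 0.16 in SCID tumours, and 0.014 and 0.14 with coding transcripts alone. How reads were split between the similar Rpl36a and Rpl36al was not tested.

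Among canonical genes, Rpl29, whose protein lies on the surface of the large subunit, was at -0.55 in WT tumours and -0.69 in SCID tumours. Rpl31, near the tunnel exit, was at -0.56 in WT tumours and -0.30 in SCID tumours. These are means of 2 transcripts over the same bases. NM_053257 was at -0.87 in WT tumours and -0.36 in SCID tumours, and NM_001252218 at -0.25 and -0.24. Rpl7a was at -0.42 and -0.52, and Rpl18 at -0.31 and -0.51. Of the small subunit, Rps2, a protein at the entry of the messenger RNA, was at -0.49 in WT tumours and -0.52 in SCID tumours, and Rps12 at -0.39 and -0.32. Rps13 was at -0.17 in WT tumours and -0.37 in SCID tumours. Each of these 7 genes was below 0 in both comparisons. After the trend removal Rpl29 was at -0.34 in WT tumours and -0.45 in SCID tumours, Rps2 at -0.33 in both, Rpl31 at -0.40 and -0.18, and Rpl7a at -0.23 and -0.32. Rpl18 was then at -0.090 in WT tumours and -0.26 in SCID tumours, Rps12 at -0.14 and -0.067, and Rps13 at 0.072 and -0.13, so that Rps13 changed sign in WT tumours.

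**Figure D2:**
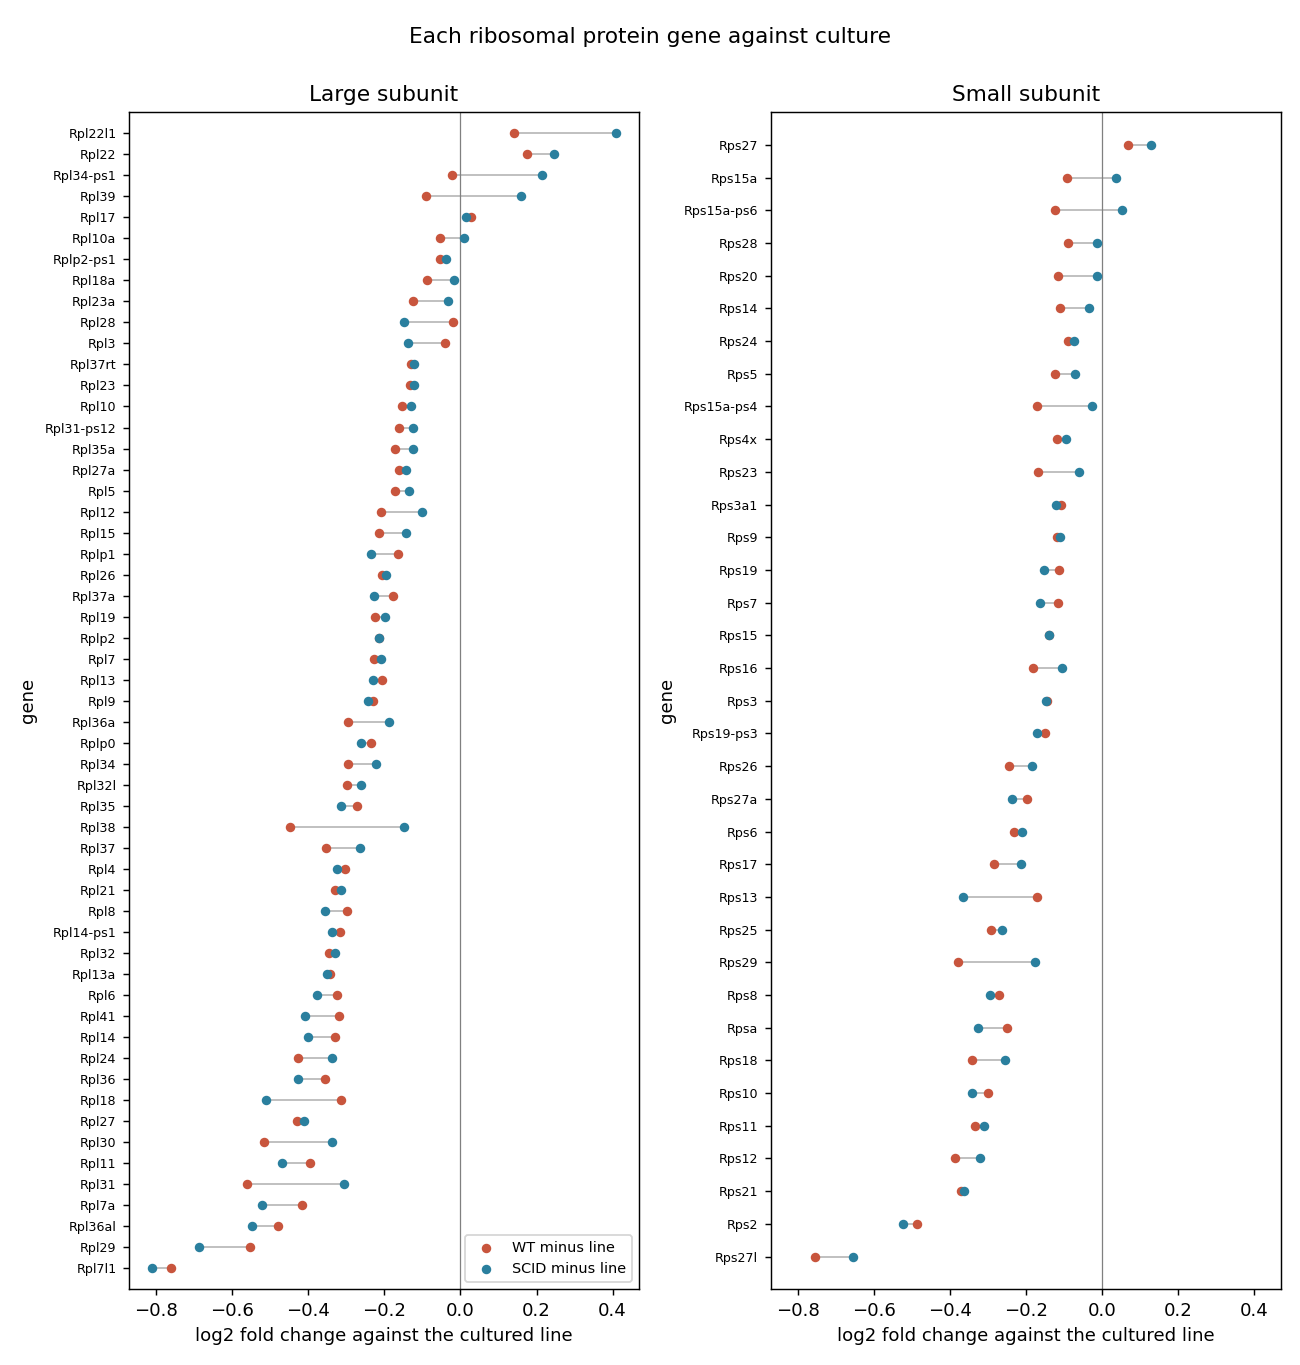
Log2 fold changes of each gene against the cultured line, red for cells from WT tumours and blue for cells from SCID tumours, with the genes of each subunit ordered by their mean. Rpl7l1 (-0.76 in WT, -0.81 in SCID) and Rps27l (-0.76 and -0.65) lie lowest, and Rpl22l1 (0.14 and 0.41) and Rpl22 (0.17 and 0.25) are above 0.

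Rpl22, Rpl22l1, Rpl17 and Rps27 were the 4 members above 0 in both comparisons. Rpl17 was at 0.028 in WT tumours and 0.015 in SCID tumours. After Rps27, the highest small subunit genes in WT tumours were Rps28 and Rps24, each at -0.089. In SCID tumours Rps28 was at -0.013 and Rps24 at -0.073. Rpl22, an RNA-binding protein that is dispensable for general translation, was at 0.17 in WT tumours and 0.25 in SCID tumours. Its paralog Rpl22l1, which the Rpl22 protein represses in mouse cells, was at 0.14 and 0.41. The 5 transcripts of Rpl22, 3 coding and 2 non-coding, were all above 0 against the line, from 0.02 to 0.33 in WT tumours and from 0.05 to 0.49 in SCID tumours.

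The Rpl22l1 value joins transcripts that went opposite ways. In the authors' deposited table NM_001347226 was at 0.40 in WT tumours and 0.96 in SCID tumours, while NM_026517 was at -0.12 in WT tumours and -0.15 in SCID tumours. WT minus SCID was -0.56 for NM_001347226 and 0.03 for NM_026517. The matching GENCODE models start exon 2 on chromosome 3 of GRCm38 at 28806503 and at 28806500, a difference of 3 bases, with coding lengths of 363 and 366 bases. The start of each coding sequence is shown because the 3 bases lie there; capitals mark them.
NM_026517, Rpl22l1 (forward strand, exon 2 at chr3:28806500-28806592): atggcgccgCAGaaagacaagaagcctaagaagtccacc
NM_001347226, Rpl22l1 (forward strand, exon 2 at chr3:28806503-28806592): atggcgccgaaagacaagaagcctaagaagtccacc

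In the authors' deposited table both begin at 28805511, and they end at 28807424 (NM_001347226) and 28807415 (NM_026517). The labels and files do not state how reads were shared out between them, and the part of that step in these values was not tested.

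A further 9 members had more than 1 transcript, and the values of a gene rested on their agreement. Of the 10 such members, Rpl22l1 and Rps27a had transcripts on both sides of 0 in both comparisons with the line. Rps27a encodes ubiquitin fused to a small subunit protein. Its NM_024277 was at 0.18 in WT tumours and 0.43 in SCID tumours, and its NM_001033865 at -0.58 and -0.90. The mean of -0.20 in WT tumours and -0.24 in SCID tumours therefore describes neither, and both transcripts span the same bases in the authors' deposited table. Rpl29 had 3 coding transcripts from -0.72 to -0.35 in WT tumours and from -0.97 to -0.44 in SCID tumours, all below 0. By contrast the 3 transcripts of Rps24 lay within 0.01 of one another in each comparison, and those of Rpl19, Rpl35a and Rpl37rt within 0.04. The median range over the 10 members was 0.20 in WT tumours and 0.13 in SCID tumours, against 0.28 and 0.31 for the 3598 genes with more than 1 transcript. A range over 0.5 was found in 3 of the 10 members in each comparison with the line. Of the 3598 genes, 28.8% had such a range in WT tumours and 32.0% in SCID tumours.

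**Figure D3:**
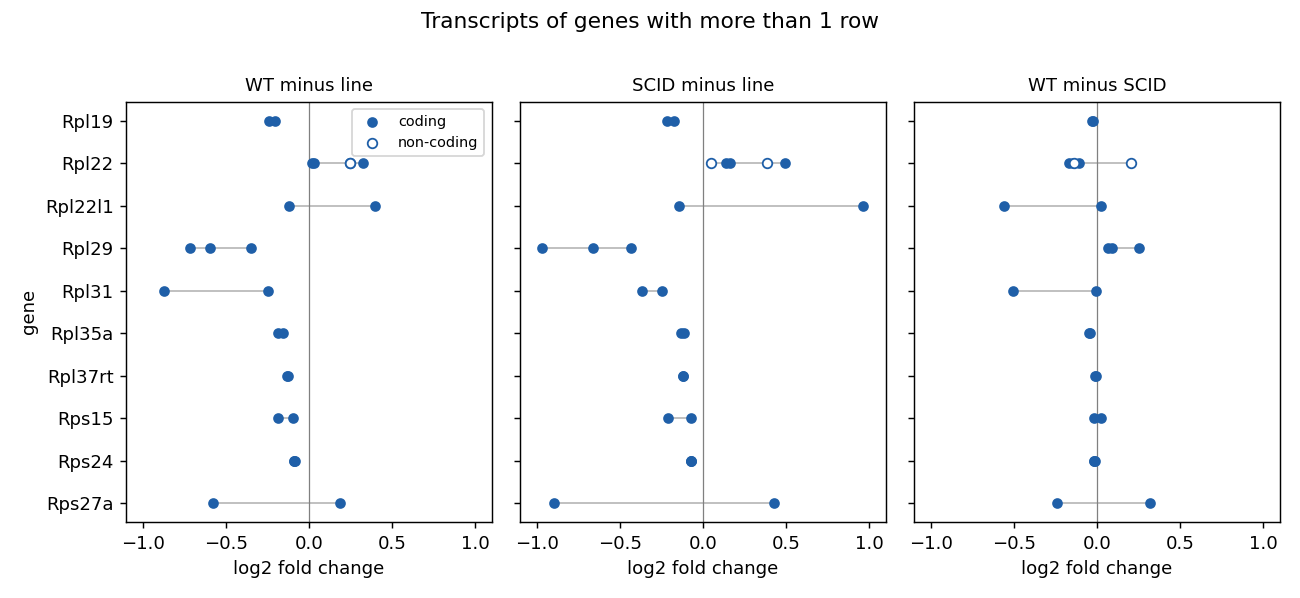
Log2 fold changes of each transcript of the 10 members that have more than 1, filled points for coding and open points for non-coding transcripts, in each comparison. Rpl22l1 and Rps27a spread over both sides of 0 against the line (ranges of 1.11 and 1.32 in SCID tumours), while Rps24 and Rpl37rt lie on single spots.

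The acidic stalk, the 5S particle, the tunnel exit and the head of the small subunit had medians below 0 against the line in both comparisons, with members that differed. The acidic stalk, which recruits elongation factors, had all 4 genes below 0. Rplp0 was at -0.23 in WT tumours and -0.26 in SCID tumours, Rplp1 at -0.16 and -0.23, Rplp2 at -0.21 and -0.21, and Rpl12 at -0.21 and -0.10. The 5S particle, whose proteins also bind Mdm2 and so act on p53, differed between its members. Rpl11 was at -0.40 in WT tumours and -0.47 in SCID tumours, and Rpl5 at -0.17 and -0.14. Of 14 genes of the head of the small subunit all 14 were below 0 in both comparisons, with a median of -0.19 in WT tumours and -0.17 in SCID tumours. The 14 include Rps27a, whose transcripts lay on both sides of 0. Of all 90 members 95.6% were below 0 in WT tumours and 90.0% in SCID tumours, where 51.4% and 51.7% of all genes were.

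At the core of the large subunit, Rpl3, beside the peptidyl transferase centre, was at -0.04 in WT tumours and -0.14 in SCID tumours, and Rpl10, which joins last, at -0.15 and -0.13. Around the tunnel exit the 7 genes ranged from -0.56 to 0.03 in WT tumours and from -0.31 to 0.16 in SCID tumours. Rpl39, which lines the tunnel, was at -0.09 in WT tumours and 0.16 in SCID tumours. Rpl13a, which has a known role outside the ribosome in the control of inflammatory messages, was at -0.34 and -0.35. Of the 7 tunnel exit genes 1 was above 0 in WT tumours and 2 in SCID tumours, where 4 and 9 of all 90 members were. With so few genes per group, these counts do not set the tunnel exit apart from the head or from the other members.

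Among small subunit genes with a disease or signalling role, Rps6, the substrate of the S6 kinases, was at -0.23 in WT tumours and -0.21 in SCID tumours. Rps19, the gene most often mutated in the human anaemia named after Diamond and Blackfan, was at -0.11 and -0.15. Rps3, at the entry channel, was at -0.14 and -0.15, and Rpsa, also known as the laminin receptor precursor, at -0.25 and -0.33. Of 17 genes mutated in that anaemia, 16 were below 0 in both comparisons, with medians of -0.21 in WT tumours and -0.18 in SCID tumours, close to those of all 90 members (-0.21 and -0.20). After the trend removal the medians of that list were -0.04 in WT tumours and 0.01 in SCID tumours. Those of the head were -0.03 and 0.01, those of the stalk -0.06 and 0.02, those of the tunnel exit 0.04 and 0.04, and those of the 5S particle -0.13 and -0.17.

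Of the copies, all 9 were below 0 in WT tumours and 7 in SCID tumours against the line. Rpl14-ps1 was at -0.32 in WT tumours and -0.34 in SCID tumours, beside Rpl14 at -0.33 and -0.40, and Rps19-ps3 at -0.15 and -0.17, beside Rps19 at -0.11 and -0.15. Others lay apart from the gene they resemble. Rpl31-ps12 was at -0.16 in WT tumours and -0.12 in SCID tumours, beside Rpl31 at -0.56 and -0.30. Of the Rpl31 transcripts, NM_001252218 lay nearer to the copy, at -0.25 and -0.24. Rpl37rt was at -0.13 and -0.12, beside Rpl37 at -0.35 and -0.26, and Rplp2-ps1 at -0.054 and -0.038, beside Rplp2 at -0.21 and -0.21. Rplp2-ps1 overlaps Wdr89 on the same strand, a gene at -0.58 in WT tumours and -0.51 in SCID tumours. How reads were shared between copies and their canonical genes was not tested. Rpl34-ps1 also departed from Rpl34, with -0.02 in WT tumours and 0.21 in SCID tumours, beside -0.30 and -0.22. The authors' deposited table places Rpl34-ps1 on chromosome 3 from 130726837 to 130730329, over Rpl34 itself, while RefSeq of GRCm38.p6 places it on chromosome 6 from 71124589 to 71125001. Both rows thus lie on 1 stretch of the genome, and the value of Rpl34-ps1 cannot be taken as that of a separate gene. It was the only one of the 105 member transcripts on another chromosome than in RefSeq.

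Between the tumour pools the ribosomal proteins were nearly level. WT minus SCID had a median of -0.01 in the large subunit, with 32 of 55 below 0, and of -0.02 in the small subunit, with 23 of 35 below 0, where 48.5% of all genes were below 0 and 51.5% above. No member reached 1.5-fold in either direction, where 1.1% of all genes were higher and 0.177% lower, and none reached 2-fold, where 0.303% were higher and 0.0168% lower. All 90 lay between -0.30 and 0.20. After the trend removal the large subunit median was 0.0011 and the small subunit median -0.025.

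Rpl38, whose loss in mice disturbs the translation of Hox messages, was lowest at -0.30, with -0.45 in WT tumours and -0.15 in SCID tumours against the line. Rpl22l1 followed at -0.27, Rpl31 at -0.26 and Rpl39 at -0.25, and in the small subunit Rps29 at -0.20, Rps15a-ps6 at -0.17 and Rps15a-ps4 at -0.14. Rpl31 rested on NM_053257 at -0.51, with NM_001252218 at -0.004 over the same bases, and it overlaps Tbc1d8 on the opposite strand, which was at 0.30. The highest of the large subunit were Rpl18 at 0.20 and Rpl29 and Rpl28 at 0.13, and the highest of the small subunit were Rps13 at 0.19, Rpsa at 0.08 and Rps7 at 0.05. Rpl38, Rpl39 and Rps29 were lower in the WT pool, and Rpl18 and Rps13 higher, each from a single transcript. Among genes with more than 1 transcript, the median range between transcripts in WT minus SCID was 0.11 for the members and 0.22 over all such genes. A range over 0.5 was found in 3 of the 10 members and in 17.4% of all such genes.

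Large and small subunit medians differed by -0.06 in both comparisons with the line, the large subunit being lower, and by 0.01 in WT minus SCID. The SD over genes was 0.17 (large) and 0.15 (small) in WT tumours and 0.21 and 0.16 in SCID tumours, as a description of the genes. The gap was not tested.

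Other genes of translation showed larger and smaller shifts than the ribosomal proteins. Mitochondrial ribosomal proteins, which build the separate ribosome of that organelle, had 78 of 78 genes below 0 in both comparisons with the line. Their median was -0.46 in WT tumours, with values from Mrpl42 at -0.94 to Mrpl24 at -0.01, and -0.48 in SCID tumours, with values from Mrpl12 at -0.94 to Mrpl24 at -0.03. After the trend removal their medians were -0.32 in WT tumours and -0.35 in SCID tumours, with 76 of 78 below 0 in each. Chaperones and assembly factors of the cytosolic ribosome, not all of them late in assembly, had 22 of 23 measured genes below 0. This list also holds the nucleolar genes Fbl and Ncl. The medians were -0.52 in WT tumours and -0.49 in SCID tumours, and -0.40 and -0.43 after the trend removal. Rrp12, which acts in export and processing of the subunits, was lowest at -0.82 in WT tumours and -0.91 in SCID tumours, and Riok3 was the only one above 0, at 0.23 and 0.17. Set beside these, the medians of the cytosolic ribosomal proteins were nearer to 0 both before and after the trend removal; the difference between lists was not tested.

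Genes whose symbols are Eif and a digit, called initiation factors here, had 43 of 52 below 0 in both comparisons. Their medians were -0.34 in WT tumours and -0.27 in SCID tumours. The list also holds genes of eIF2 kinases (such as Eif2ak3) and of eIF4E-binding proteins (such as Eif4ebp1). It shares Eif6 with the assembly factors, and Eif4ebp1 and Eif4ebp2 with the mTORC1 genes below. Eif3e, Eif3f, Eif3h and Eif4b are also among the other TOP messages below, so the lists are not independent. Eif2b5, of the exchange factor for eIF2, was lowest at -0.68 and -0.74, and Eif4a2, an RNA helicase, highest at 0.46 and 0.60. Genes whose symbols are Eef and a digit, called elongation factors here, include modifiers of these factors. They share Eef1a1, Eef1b2, Eef1d, Eef1g and Eef2 with the other TOP messages. Of them 10 of 11 were below 0, with medians of -0.32 in WT tumours and -0.27 in SCID tumours. Eef1e1 was lowest at -0.61 and -0.57, and the kinase gene Eef2k, whose product inhibits elongation, was highest at 0.23 and 0.37. For the initiation factors the medians after the trend removal were -0.28 in WT tumours and -0.28 in SCID tumours, and so stayed farther from 0 than those of the ribosomal proteins.

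Other messages with a TOP element lay around 0. Of 24 measured, 15 were below 0 in WT tumours and 13 in SCID tumours, both with a median of -0.04. Lowest was Npm1, a nucleolar chaperone also listed with the assembly factors, at -0.71 in WT tumours and -0.49 in SCID tumours. Snhg12, a host gene of small nucleolar RNAs, was at 0.34 and 0.38 and was the highest in WT tumours. Snhg8 was at 0.26 in WT tumours and was the highest in SCID tumours at 0.44. In WT minus SCID, 18 of the 24 were below 0 with a median of -0.04, Npm1 lowest at -0.22 and Eef1g highest at 0.07. Rack1, a scaffold on the head of the small subunit, was at -0.19 and -0.22, while Fau, which encodes a small subunit protein fused to a relative of ubiquitin and falls outside the symbol rule, was at 0.01 in WT tumours and 0.00 in SCID tumours. The medians of this list changed sign after the trend removal, to 0.02 in WT tumours and 0.06 in SCID tumours.

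Genes of mTORC1 and the S6 kinases had medians of -0.01 in WT tumours and -0.03 in SCID tumours, with 9 and 10 of 16 below 0, and -0.20 and -0.21 after the trend removal. Deptor, an inhibitor of mTOR, was lowest at -0.71 in WT tumours and -1.01 in SCID tumours, the only 2-fold difference in the lists of translation and mTORC1 genes described here. Rps6ka3 was highest at 0.20 and 0.22. In WT minus SCID, Mlst8 was highest at 0.35, Tsc1 lowest at -0.09 and the median 0.01. The medians of the remaining lists in WT minus SCID were 0.03 for mitochondrial ribosomal proteins, from Mrpl1 at -0.19 to Mrps18c at 0.29, and -0.01 for assembly factors, from Npm1 to Fbl at 0.16. They were 0.01 for initiation factors, from Eif4g2 at -0.25 to Eif6 at 0.14, and -0.02 for elongation factors, from Eef2k at -0.15 to Eef1akmt2 at 0.125.

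**Figure D4:**
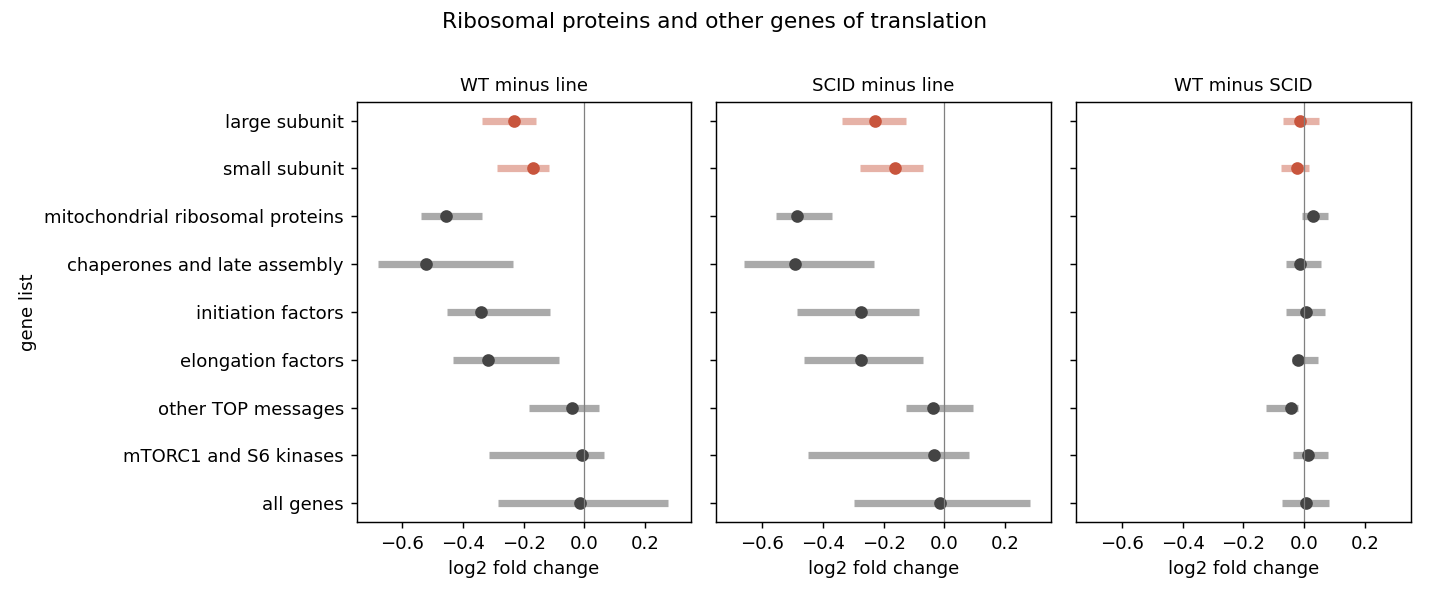
Median (point) and interquartile range (bar) of the log2 fold changes of each gene list in each comparison, the ribosomal subunits in red and other lists in grey. Against the line the mitochondrial ribosomal proteins (-0.46 in WT tumours, -0.48 in SCID tumours) and assembly factors (-0.52 and -0.49) lie lower than both subunits (-0.23 and -0.17 in WT tumours), and the other TOP messages lie at -0.04.

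Markers of the tumour cells and of other cells moved beside these values. All 6 epithelial markers (Krt7, Krt8, Krt18, Krt19, Epcam and Cdh1) had a value, from -0.99 (Krt7) to 1.59 (Epcam) in WT tumours and from -1.18 to 1.25 in SCID tumours against the line. In both comparisons 5 of the 6 were below 0, with medians of -0.27 in WT tumours and -0.39 in SCID tumours. Of the macrophage markers 4 of 8 had a value, from 0.77 to 2.77 with a median of 1.73 in WT tumours, from -0.056 to 1.021 with a median of 0.70 in SCID tumours, and a median of 1.04 in WT minus SCID. Apoe, the highest of them, is also expressed outside macrophages. Col1a1 was the only fibroblast marker of 6, at 1.90 in WT tumours and 2.61 in SCID tumours, and 2 of 4 endothelial markers had a median of 1.37 and 1.21. None of the 4 T cell markers was measured here. The table gives no levels, so a summed level of these markers per group could not be formed. In bulk RNA fewer cells of a type and less RNA per cell cannot be told apart, and the part of host cells, and of the sort, in the ribosomal protein values was not tested.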

How the data were processed

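The authors deposited 1 table of fold changes between 3 libraries for 17910 RefSeq transcripts (16810 coding, 1100 non-coding), without counts or levels. Libraries were stranded, from poly(A) RNA, and read as pairs of 75 bases, per the labels' protocols. The authors' tools, per the submitters' processing notes, were BWA, Partek, R 3.5.1 and DESeq2 1.20.0, with mm9 as build and no roles given. How reads were counted, strand use, shrinkage and row filters were not stated. The header names no log base, and the deposited values, from -2.49 to 2.77, were read as log2. One column held the difference of the other columns within 1e-12, and it was negated here to run as WT minus SCID. Transcript positions matched GRCm38, not mm9 as noted.

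Transcript values were averaged per gene (pandas 2.3.3, Python 3.11.15). With 1 library per group no test was made. A 2-fold difference was the threshold. GC content and length came from GENCODE vM21 for 93.2% of transcripts and 89.5% of member transcripts. Where several GENCODE transcripts matched a RefSeq transcript, the first in name order was used, which need not have the same length. The code was checked on random values with known shifts of the members and a known GC trend. No length trend was put in, so the length part of the surface was not checked in this way. Members, lists, motifs and sequences shown were chosen with earlier results of these data known. Named genes are the 3 highest and 3 lowest members per subunit and comparison, the paralog pairs, 14 chosen members and the extremes of each other list. Further genes were named after their values were seen: copies with their parents, multi-transcript genes, Rpl7a, Rpl12, Rack1 and Fau. Some items are not reported here.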

Additional observations from a re-analysis of the deposited data

Results flagged for a closer look

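Among the members, 5 of 90 (5.56%) lay on opposite sides of 0 in the tumour pools against the line, as did 9.7% of all genes. Each value rests on 1 library per pool and a shared cultured library, and the difference was not tested. Rpl39 was at -0.0905 in WT tumours and 0.16 in SCID tumours. Rps15a was at -0.0916 and 0.037, and its copy Rps15a-ps6 at -0.1235 and 0.051. Rps15a-ps6 overlaps Nudcd3 on the same strand, a gene at -0.65 in WT tumours and -0.69 in SCID tumours. Rpl10a was at -0.0546 and 0.0092. Rpl34-ps1, whose row lies over Rpl34, was at -0.0211 and 0.21. After the trend in GC content and length was subtracted, the 3 of these with a value lay on 1 side of 0 in both pools: Rpl39 at 0.13 in WT tumours and 0.36 in SCID tumours, Rpl10a at 0.14 and 0.23, and Rps15a at -0.098 and -0.0042. Rps15a was matched to a sequence of 5179 bases, where the median member transcript had 777. Its values after the subtraction depend on that length. Its copy Rps15a-ps4, matched to 502 bases, went from -0.17 to 0.037 in WT tumours and from -0.027 to 0.11 in SCID tumours.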

How the results depend on the processing

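No paired analysis was possible because each group is 1 library and no test was made. Of 11 alternatives, subtraction of the GC and length surface moved the most. Against the line, the medians became -0.0718 (large) and -0.0256 (small) in WT tumours, and -0.0802 (large) and 0.0108 (small) in SCID tumours. Counts below 0 became 17 (small, WT tumours), 30 (large, SCID tumours) and 14 (small, SCID tumours), and 9 of the 18 medians of structural groups were below 0, against 14. In WT minus SCID the large subunit median became 0.0011 and large minus small 0.0259. It covers fewer members, and the cause was not tested. Members with 1 transcript alone gave -0.0409 (small) and 0.0298 (large minus small) in WT minus SCID. At 1.5-fold, 1 large and 1 small subunit gene passed in WT tumours, and 2 and 1 in SCID tumours. Of 243 recomputed summary values, 227 were equal to the first value or kept their sign and stayed within 1.5 times. So did 369 of 447 values of single lists and paralog pairs. The 227 include counts of members past 2-fold that were 0 before and after. Since 80 of 90 members had 1 transcript, settings that differ only in how transcripts were joined could move the medians little. Leaving out paralogs and copies was added after seeing the data. Filters on low values and other size factors were not run, as they need counts; the limit set by depth is unknown.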
